A study of Macaca mulatta with 11 samples.

Results

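Half-methylated CpG-rich regions were described in the prefrontal cortex of 11 rhesus macaques (Macaca mulatta). Measured CpG positions at most 200 bp apart were joined, and each run was split every 1000 bp. The level of a region in an animal was its methylated reads as a percentage of all its reads. Reads of a region or a library were summed over positions, so a read that covered several positions counted once at each. A region was kept if it held at least 20 positions and its level lay from 40% to 60% in every one of the 11 animals. The rule kept 775 of 45982 regions with at least 20 positions, or 1.69%. They held 28839 of the 3115109 measured positions (0.926%) and covered 652079 bp. Kept regions less than 5000 bp apart were merged, which gave 736 loci. The members were therefore chosen by their measured levels, and a level near 50% with a limited range between animals is what the rule asked for and not a finding.

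The tissue came from area 46, and all 11 animals were alcohol-naïve when it was taken. Cohort 10 gave 2 animals and cohort 14 gave 9. The labels give each animal an age, from 5.02 to 5.44, and an ethanol value for 6 months, from 1.69 to 4.31, both without a unit; the second is called the EtOH value here. DNA was captured by SureSelect XT Human Methyl-Seq library preparation, whose probes were designed on the human genome, so only the macaque DNA that such probes caught was measured. The study asks whether methylation before drinking varies with later ethanol use.

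CpG methylation is the addition of a methyl group to a cytosine that is followed by a guanine. CpG-rich stretches of mammalian genomes are mostly unmethylated and CpG-poor DNA is mostly methylated, so levels between these states are uncommon in CpG-rich DNA. Imprinted regions are one known case. In an imprinted differentially methylated region the copy from one parent carries the methyl groups and the copy from the other does not, in nearly all cells of the body; the mark is set in the egg or the sperm, protected after fertilisation by zinc finger proteins such as ZFP57, and controls which parental copy of nearby genes is expressed. Such a region is known to show an intermediate level along its whole length, CpG after CpG, in every tissue.

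The deposited tables hold reads per position and animal, without parent of origin, single molecules or cell types. One methylated copy per cell, methylation in a share of the cells of a mixed tissue, and partial methylation of each molecule cannot be told apart in such counts. The label imprint-like was therefore checked on what the counts do show: whether a region was at an intermediate level at each of its positions, or only on average. Genes are not named, because the files give chromosome and position but no genome build. Coordinates are those of the files.

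The check divided the regions. The median region had 52.4% of its positions at a mean level of 30% to 70%, and the middle 50% of regions ran from 28.6% to 74.6%. In 149 of the 775 regions (19.2%) at least 80% of the positions were at 30% to 70%; they are called even here, and they lay in 136 loci on 20 chromosomes. Another 184 regions (23.7% of the 775) were not even but had a single break between a high and a low side. That break accounted for at least 80% of the variance of level over positions, and they are called single-step regions. The other 442 (57.0%) fitted neither description. In these 442 a median of 54.0% of the positions were at 30% to 70%, 10.2% below 20% and 10% above 80%. The label matches the evenness of a minority of the kept regions.

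**Figure D1:**
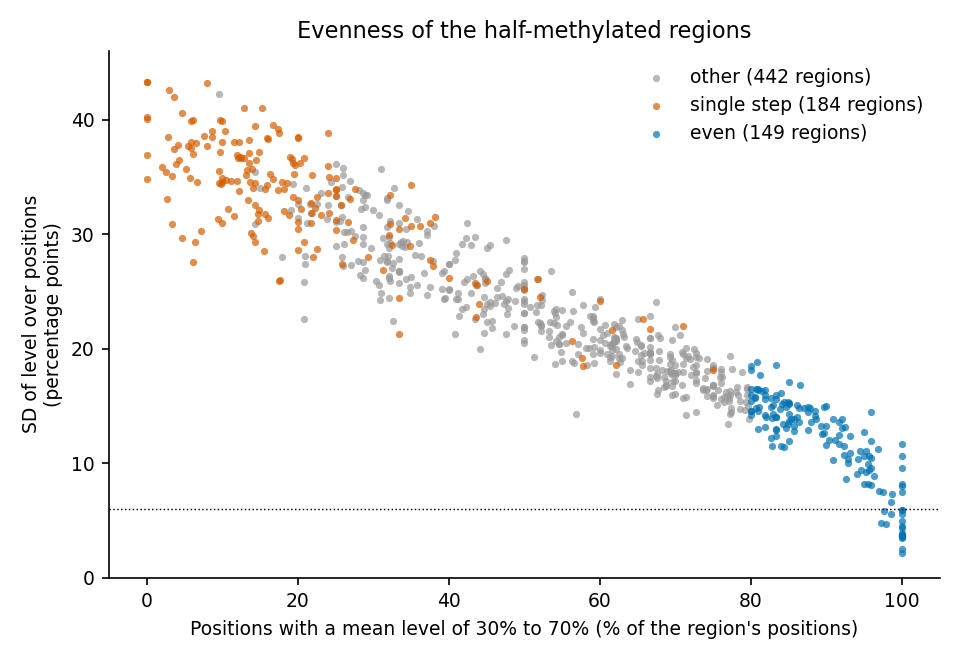
Each point is 1 of the 775 regions, with the percentage of its positions at a mean level of 30% to 70% on the x axis and the SD of level over its positions, in percentage points, on the y axis; colours mark even, single-step and other regions. The dotted line at 6 percentage points lies above 19 regions at the lower right, while the single-step regions lie at the upper left.

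Regions whose average lay within the limits while at least 1 animal did not gave the comparison set. The mean level over animals lay from 40% to 60% in 2880 regions with at least 20 positions; 775 of these (26.9%) met the rule in every animal, and 2105 did not. The middle 50% of regions had means from 43.7% to 56.2% in the comparison set and from 47.7% to 51.9% in the kept regions, so many of the 2105 lay nearer a limit. Even regions made up 24.2% of the 2105 (509 regions) and 1.73% of all 45982 (796 regions). Single-step regions made up 17.2% of the 2105 and 9.001% of all. The requirement on every animal thus did not raise the share of even regions above that in the set that failed it; no test was made, since the same counts chose the regions. The median SD of level over positions was 22.4 percentage points in the kept regions and 19.1 in the comparison set.

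The 10 regions with the highest share of positions at 30% to 70%, ties going to the region with more positions, had every position in that range. Of these, 4 lay on chromosome 10, 4 on chromosome 3, and 1 each on chromosomes 7 and 19. The region with most positions was on chromosome 10, from 93996089 to 93997071, with 80 positions. Its level over the 11 animals was 42.0% at the lowest, 49.3% at the median and 51.2% at the highest, a mean of 47.8% ± 3.10 (SD, n = 11). The 2 animals of cohort 10 stood at 49.3% and 43.9%, inside the range of cohort 14. The shallowest animal had 26121 reads summed over the positions of that region. The SD over the 80 positions was 4.36 percentage points.

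The second, with 79 positions, lay on the same chromosome, from 94045553 to 94046471, and ran from 41.4% through a median of 48.2% to 54.3%. The third, with 75 positions on chromosome 3 from 64506252 to 64507024, ran from 41.8% through 47.0% to 53.4%. Chromosome 10 from 93998084 to 93999070, with 65 positions, ran from 43.7% through 48.5% to 52.7%. In the third, the animals of cohort 10 were the lowest and the highest of the 11. The cohort 10 means of the 3 regions were 46.8%, 47.6% and 46.3%, within the range of the animals of cohort 14, whose means were 48.9%, 47.5% and 48.5%.

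A pair of neighbours on chromosome 3 followed. The region from 156791240 to 156792215, with 63 positions, ran from 44.3% through 50.05% to 58.0%. Its neighbour from 156792401 to 156793231, with 62 positions, ran from 44.2% through 48.6% to 53.9%. The most uniform region of all 775 was on chromosome 10 from 94007870 to 94008852: the SD over its 54 positions was 2.19 percentage points, and the animals ran from 40.2% through 44.2% to 51.4%.

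The last 3 of the 10 had fewer positions. Chromosome 7 from 163045541 to 163046519, with 53 positions, ran from 42.5% through 44.9% to 50.9%, and its SD between animals was 2.26. Chromosome 3 from 111473664 to 111474656, with 44 positions, ran from 42.2% through 49.4% to 55.3%, with an SD of 4.17. Chromosome 19 from 56521149 to 56522035, with 43 positions, ran from 43.5% through 46.05% to 52.8%, with an SD of 2.85. In this last region the animals of cohort 10, at 43.5% and 44.3%, lay below all 9 of cohort 14. In the other 9 regions the cohorts overlapped. How often the cohorts lay apart over all members was not counted, so nothing is read from this. The means of the 10 regions lay from 44.8% to 50.4%, and 9 of the 10 were below 50%.

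**Figure D2:**
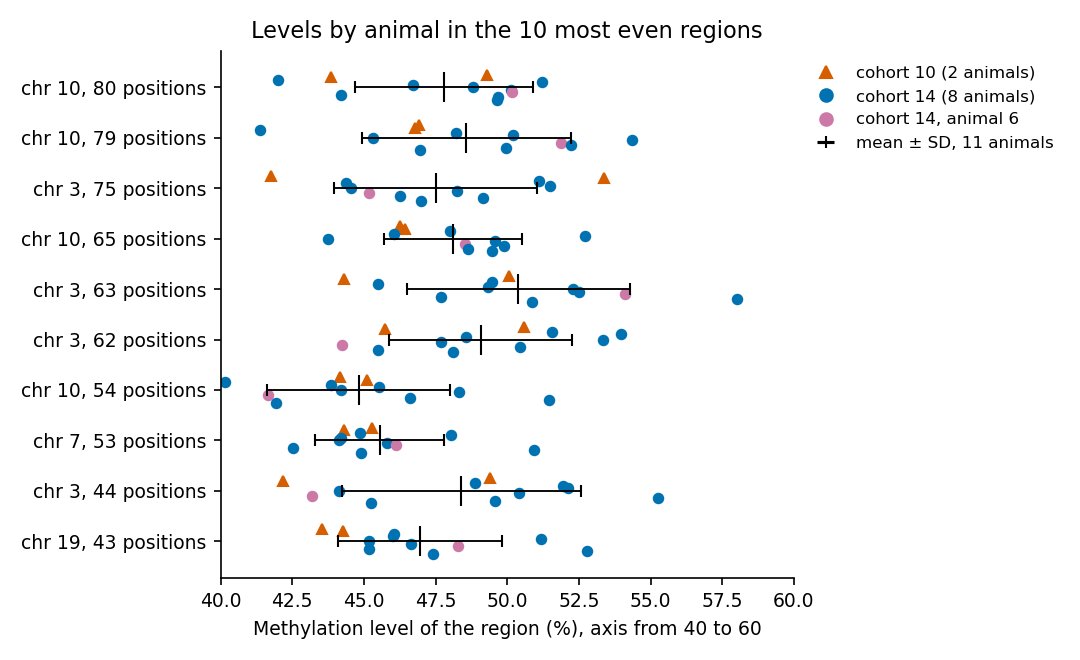
Methylation level of the 10 most even regions on the x axis (axis from 40% to 60%) with 1 point per animal: triangles for the 2 animals of cohort 10, circles for the 9 of cohort 14, animal 6 of cohort 14 in its own colour, and a black bar for the mean ± SD of the 11 animals. The points of both cohorts overlap in 9 of the 10 regions, the exception being the region on chromosome 19. The same count was not made over all members.

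Single positions were looked at next. The kinds were defined from the means of these same positions, so their drawings and shares are no separate support for the division. In the 4 even regions drawn, each the most even of a different locus, the means of single positions stayed close to the region's mean from end to end. The 2 single-step regions drawn were chosen for their lowest share at 30% to 70%. Their positions lay near the top or the bottom of the scale with almost nothing between. Over the positions of all even regions, 41.4% were at 30% to 70% in every one of the 11 animals, against 17.5% of all members' positions and 5.91% in single-step regions. The median SD between animals at a single position was 8.14 percentage points in even regions and 7.38 in all members, where the median counting SD was 2.96 at a median depth of 189 reads. Single positions thus varied more between animals than their read counts alone would give. That counting SD covers counting error only, because copies made by PCR could not be told from independent molecules.

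Depth moved with that spread. Among even regions, positions with a median of fewer than 50 reads per animal (328 positions) had a median SD between animals of 17.3 percentage points, and those with at least 400 reads (1202 positions) had 5.66. Their mean levels were alike, 47.7% and 49.1%. The share at 30% to 70% in all 11 animals rose from 0.610% to 71.5% between these depths, and in the flat regions described below it reached 97.7% at 400 reads or more. The SD stayed above the counting SD at both ends, 7.58 for the shallow and 2.11 for the deep positions. In the first of the 10 most even regions no position had animals more than 40 points apart. The second had 23 such positions, with a median depth of 62 reads against 455 at its other positions, and the third had 22, at 69.5 against 215 reads. A single position at low depth therefore says little about an animal. Summed over positions, the lowest read total of any of these 10 regions in an animal was 5556. The part of depth in the spread was not tested.

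**Figure D3:**
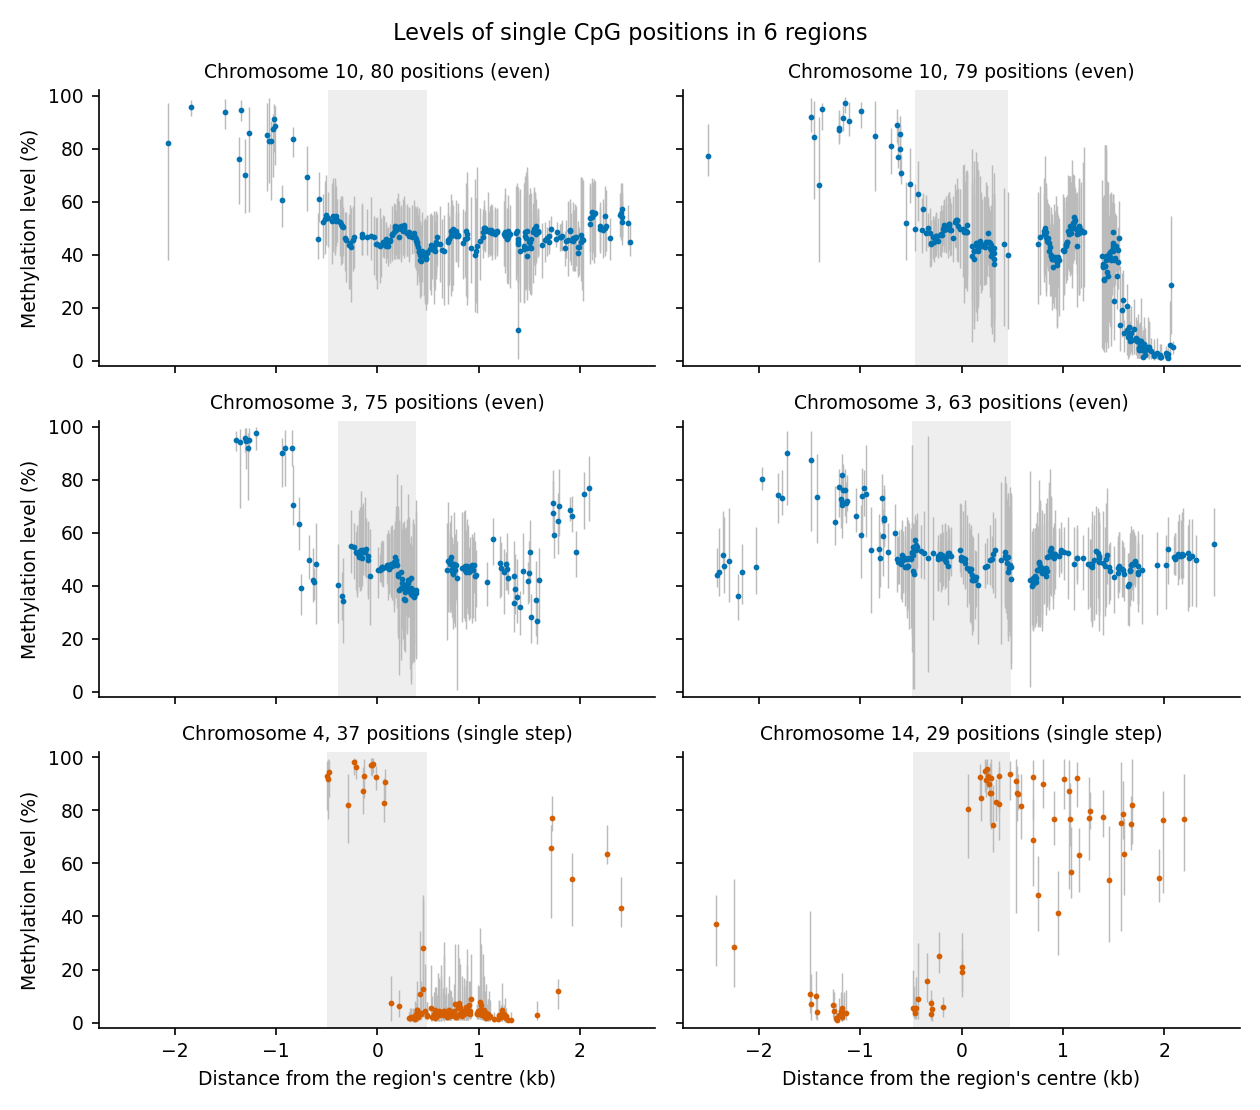
Level of single CpG positions (y axis, percent) against the distance from the region's centre in kb (x axis) in 6 regions, 4 even and 2 single-step, with points for the mean over 11 animals, vertical lines from the lowest to the highest animal, and shading over the kept region. Inside the shading all means lie from 30% to 70% in the even regions and none does in the single-step regions, which is how they were chosen.

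A stricter reading of evenness, set after the values had been seen, asked for an SD over positions under 6 percentage points. It was met by 19 of the 775 regions (2.45%) in 15 loci on 9 chromosomes, called flat here. Chromosome 10 held 6 of them, chromosome 3 held 5 and chromosome 19 held 2; chromosomes 4, 5, 7, 8, 9 and 12 held 1 each. In the comparison set 30 of 2105 regions (1.43%) met it. With 10 points as the limit the order turned, with 39 members (5.03%) against 7.46% of the comparison set, so nothing is read from either share.

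The 19 flat regions were long in positions, with a median of 53 and a range of 21 to 80, and 8 of them had at least 60. Their means lay from 44.8% to 53.3%, with a median of 48.5%. Of the 19, 16 had a mean below 50%, compared with 86 of the 149 even regions and 410 of all 775. The SD between animals ran from 1.34 to 4.18 with a median of 3.19 percentage points. The smallest of these SDs belonged to chromosome 9 from 120302434 to 120303337, where 28 positions averaged 53.3% and the animals ran from 50.6% through 53.6% to 55.6%. Another flat region lay close to the start of chromosome 3, from 128170 to 128977, with 71 positions and animals from 40.2% through 44.8% to 53.7%.

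Position density, which the minimum of 20 positions partly fixes, and depth were compared next. The flat regions had a median of 5.60 positions per 100 bp, against 4.36 in even regions, 4.02 in all members and 5.45 in all regions with at least 20 positions. Their median read depth per position was 2.42 times that of the median position of the library, against 1.70 in even regions, 1.55 in all members and 1.27 in the comparison set. More than 3 times the usual depth was reached by 49 members (6.32%), 17 of them even, against 3.99% of the comparison set and 3.34% of all regions with at least 20 positions. Sequences present in several copies collect reads from all of them, and the part of such copies in these levels was not tested.

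Loci with several regions showed how far the level reached. Of the 736 loci, 701 held a single region, 32 held 2, 2 held 3 and 1 held 4. The densest set of even regions was on chromosome 10, where 6 members in 3 loci lay within 50383 bp, from 93996089 to 94046471, and all 6 were even. With their surroundings they made 21 measured windows, of which 11 had a mean level from 40% to 60%, 4 were below 20%, 1 lay from 20% to 40%, 4 from 60% to 80%, and 1 was above 80%.

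Along this cluster the level changed in blocks. The first block followed a window at 71.3% and held 4 windows from 93996089 to 93999778 at 47.8%, 47.0%, 48.1% and 46.5%. The second ran from 94006861 to 94009741 at 48.7%, 44.8% and 43.5%, and was followed by a window of 51 positions at 72.9% ± 2.04 (SD, n = 11). After it the level returned to 47.3%, 48.1% and 46.1%, up to 94013262. The next window, with 8 positions from 94026317 to 94026568, stood at 13.3%, and a window of 7 positions after it at 70.9%. The third block began after a window at 81.2% with the region at 48.6%, passed through a window of 111 positions at 35.6% ± 3.42, and ended in 3 windows at 3.37%, 3.09% and 3.08%. A window inside a block could miss the rule by 1 animal or more: the window from 93997096 to 93998074 had 75 positions, 98.7% of them at 30% to 70%, and a lowest animal at 39.2%.

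**Figure D4:**
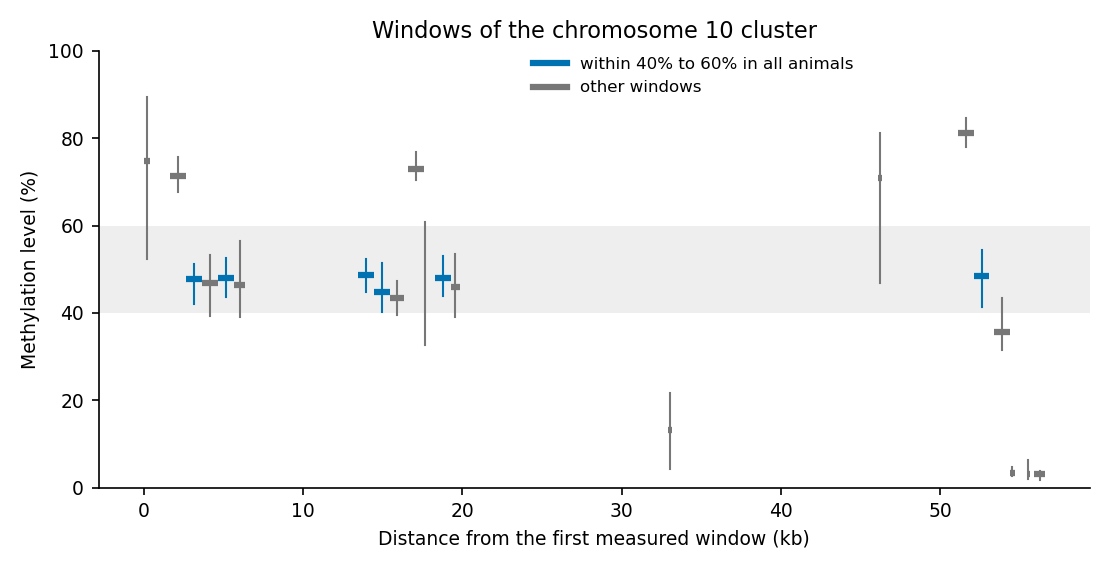
Methylation level (y axis, percent) of the 21 measured windows of the chromosome 10 cluster against the distance from the first of them in kb (x axis); horizontal bars give the mean of the 11 animals, vertical lines the lowest and highest animal, colour marks the 6 windows within 40% to 60% in all animals, and shading covers 40% to 60%. Windows above 70% stand before the first and the last block and inside the middle one, a window at 13.3% follows the middle block, and 3 windows below 4% end the row.

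The other loci with most regions were less even. The locus with 4 regions, on chromosome 3 from 183687727 to 183697736, spanned 10010 bp, and its 4 regions had means of 53.0%, 48.8%, 51.4% and 49.9%, with 56.3%, 81.1%, 51.2% and 86.5% of their positions at 30% to 70%. Between them lay 3 consecutive windows at 12.1%, 3.47% and 9.02%, so the locus framed a stretch of low methylation. Chromosome 14 from 2074319 to 2079310 held 3 regions at 51.5%, 53.1% and 48.5%. Its window from 2076319 to 2077263, at 44.0% with all 60 positions at 30% to 70%, missed the rule because its animals ran from 34.0% to 53.1%. The window before that locus was high, at 83.6%, and after it the level passed through 60.3% and 38.5% to 87.3%.

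On chromosome 12 from 95184293 to 95186272, 2 regions with 26 and 122 positions averaged 50.2% and 48.7%, and the next window fell to 8.09%. The 122-position region had the most positions of any member; its animals ran from 41.9% through 48.3% to 59.7%. On chromosome 19 from 17984480 to 17986359, 2 regions with 91 and 52 positions averaged 47.8% and 45.3%, but only 44.0% and 28.8% of their positions were at 30% to 70%. The 2 next windows there stood at 87.6% and 75.1%. Both of these loci lay at the edge of a high or low stretch.

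On a wider scale, loci less than 100 kb apart formed 641 groups, of which 573 were single loci and 16 held at least 3. The group with most loci was on chromosome 6 from 138172493 to 138263374, a span of 90882 bp, with 8 loci and 10 regions. Its regions were CpG-dense, with a median of 66 positions and 9.35 positions per 100 bp, and their means lay from 47.1% to 54.3%. They were not flat: 53.2% to 84.1% of their positions were at 30% to 70%, 3 of the 10 were even, and the SD over positions ran from 15.1 to 21.05 percentage points. Groups of 5 loci lay on chromosome 3 from 33940410 to 34153879 and on chromosome 15 from 1058697 to 1235546, with 2 and 1 even regions.

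Windows cut every 1000 bp can divide a longer stretch, so runs of consecutive positions at a mean level of 30% to 70% were also listed without windows. The longest had 186 positions over 3492 bp, on chromosome 3 from 156790949 to 156794440, with a mean of 49.2%; it contained the pair of chromosome 3 neighbours above. Next came 149 positions on chromosome 10 from 93995882 to 93997968, 146 on chromosome 10 from 94006894 to 94009741, 146 on chromosome 19 from 56520753 to 56523571, and 112 on chromosome 9 from 120301376 to 120303337. Each of the 10 longest overlapped a kept region, as did 16 of the 20 longest and 22 of the 40 longest. Of all 553 runs with at least 20 positions 91 did. The longest run within a region had a median of 18 positions in even regions, 7 in the regions of neither kind and 3 in single-step regions.

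Some long runs fell outside the rule by little and others by more. A run of 79 positions on chromosome 4 from 47782748 to 47783399 averaged 45.3%; the window that held it, up to 47783713, had 1 animal outside, at 37.9%. A run of 78 positions on chromosome 3 from 9364864 to 9366254 averaged 45.2%. Its first window, up to 9365863, had 2 animals outside, the lower at 37.2%. Its second window, with 16 positions, had 4 animals outside, the lowest at 33.5%. A run of 81 positions on chromosome 10 from 94046770 to 94047510 lay in a window with a mean of 35.6% and 10 animals outside.

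The single-step regions were of another kind. Their high side had a median level of 77.8% and their low side 10.5%, and the median jump was 65.01 percentage points. The high side was on the left, towards lower coordinates, in 105 and on the right in 79. Depth differed along them: positions with fewer than 50 reads had a mean level of 19.3%, and those with at least 400 reads 59.3%, and summed reads weigh the deep side more. A median of 16.1% of their positions lay at 30% to 70%, while 47.4% lay below 20% and 21.5% above 80%. At the extreme, the low side of a region stood at 47.5% and 75% of the positions of a region at 30% to 70%, so not every step led to unmethylated DNA.

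The 5 regions with the lowest share of positions at 30% to 70%, 0% in each, were all of that kind. On chromosome 4 from 135695694 to 135696681 the 37 positions fell from 92.4% left of the break to 5.02% right of it, and the animals ran from 40.3% through 45.1% to 53.2%. On chromosome 14 from 3224615 to 3225571 the 29 positions rose from 10.0% to 88.4%, with animals from 41.1% through 44.1% to 51.5%. On chromosome 3 from 109800068 to 109801066 the 25 positions fell from 90.1% to 4.42%, with animals from 41.5% through 46.9% to 54.0%. These 3 had no position at 30% to 70%, and their averages over the window were 45.2%, 44.3% and 46.5%, where the flat regions ran from 44.8% to 53.3%.

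The other two also had no position in that band. On chromosome 6 from 45854101 to 45854881 the 23 positions rose from 6.39% to 84.1%, and on chromosome 11 from 121910500 to 121911498 the 22 positions fell from 89.9% to 18.9%. The SD between animals of these 5 regions ran from 2.78 to 3.95 percentage points and that of the flat regions from 1.34 to 4.18; the rule capped both.

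Cutting the windows 500 bp further on was an alternative chosen after the data had been seen. It gave 515 regions in 484 loci. Of 727 kept regions that were cut anew, 137 (18.8%) still had at least 1 position in a kept region. The share was 84.2% for flat regions (16 of 19), 41.4% for even regions (55 of 133), 18.2% for regions of neither kind (75 of 413) and 3.87% for single-step regions (7 of 181). Membership of most regions that were not flat depended on where the windows began. The kinds were defined from the same positions, and the average over a break changes when the window moves. The order of these shares is therefore no separate support for the division.

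Levels beside the loci were taken from 1 to 2000 bp on either side where both sides had at least 5 positions. Of loci with an even region 71 had both flanks. With both sides weighed equally the median flank level was 54.4%. With the positions of both sides pooled, the medians of single animals ran from 46.8% to 51.2%. In 35 loci (49.3%) both flanks lay from 20% to 80%. In 14 one flank was below 20% and the other between, in 13 one was above 80% and the other between, in 4 both were high, in 3 one was high and one low, and in 2 both were low. The median difference between the flanks was 22.7 percentage points. Of 68 loci with a single-step region, 20 (29.4%) had one high and one low flank, and the median difference was 61.1. The 207 loci with neither kind had a median difference of 36.0. Both flanks lay from 20% to 80% at 50 of these 207 loci (24.2%) and at 9 of the 68 single-step loci (13.2%). Flanks were measured at only part of the loci, and no test was made.

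An average profile was also drawn for each kind. Within 500 bp of the centre it mostly shows the positions that defined the kinds, so it is no separate support for them. Turned so that the high side lay left, single-step regions stood at 83.3% at 500 bp before the centre, 66.8% at 100 bp before, 31.3% at 100 bp after and 7.78% at 500 bp after. Even regions stayed from 48.5% to 50.4% within 500 bp of the centre and were at 42.3% and 42.2% at 1100 bp on either side. Flat regions stayed from 45.3% to 53.9% out to 1100 bp.

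**Figure D5:**
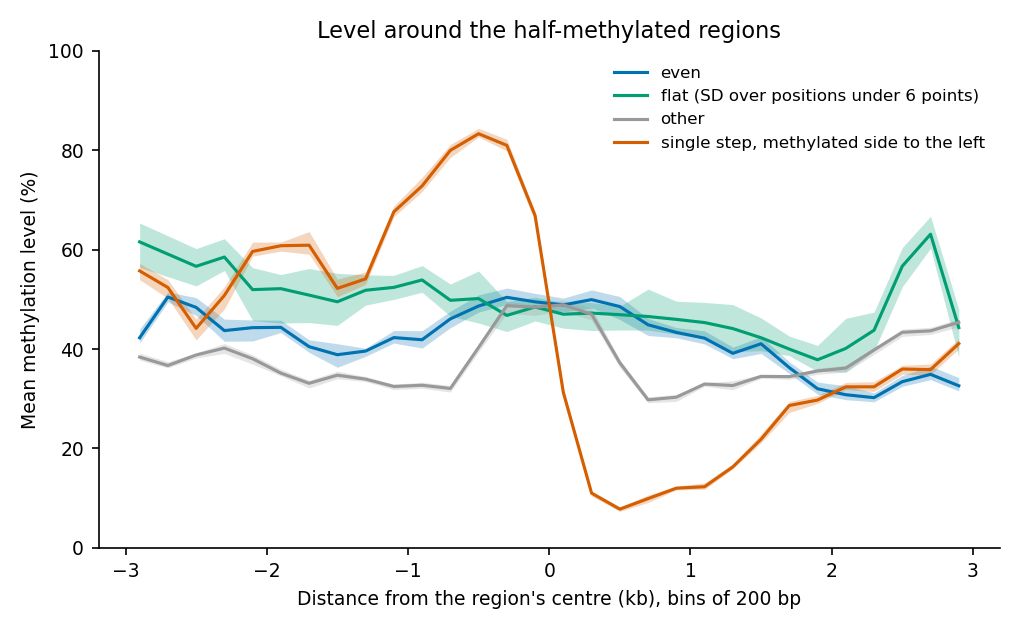
Mean methylation level (y axis, percent) in bins of 200 bp against the distance from the region's centre in kb (x axis) for even, flat, single-step and other regions. The single-step ones are turned so that the high side lies left. Lines are the mean over all positions in a bin, so regions with more positions weigh more, and bands run from the lowest to the highest animal. The single-step line falls from 83.3% to 7.78% within 500 bp of the centre, while the even and flat lines stay near 50% over the same distance. That distance lies mostly inside the regions, whose levels defined the kinds.

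Regions were spread over all 20 chromosomes. Their share of the regions with at least 20 positions ran from 0.715% on chromosome 18 (5 regions) to 2.19% on chromosome 10 (55 regions). Within 2 Mb of the first or last measured position of a chromosome lay 126 members (16.3%), 14.1% of the even regions and 18.5% of the comparison set, against 14.2% of all regions with at least 20 positions. Members had a median of 32 positions, 20 to 122, and a median length of 936 bp.

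A sequence variant at a CpG can give an animal a level near 0% or 100% at that position. Positions with 1 animal below 20% and another above 80% made up 1.002% of members' positions (289), compared with 1.74% of all positions. They occurred in 24.2% of even regions (36), 21.7% of single-step regions, 36.6% of the comparison set and 20.6% of all regions with at least 20 positions. Of the 19 flat regions 14 had no such position. Some listed positions lay 1 bp apart, which can be both strands of 1 CpG. The levels of such pairs differed by a median of 3.41 percentage points in members (694 pairs) and 4.10 in the comparison set (1241 pairs). Over all regions with at least 20 positions the median was 1.85.

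The spread between animals was the last readout the rule names, and the rule capped it at 20 percentage points of range. The SD between animals had a median of 3.53 percentage points and ran from 0.932 to 6.74, and the median range was 11.4. In the comparison set the median SD was 5.02 and the median range 16.5, and over all regions with at least 20 positions it was 1.54. The median counting SD of a member was 0.573, and the median ratio of the SD between animals to it was 5.92. Of the 775 regions 0 had an SD below it. A read that covered several positions was counted at each, as if independent, and PCR copies were counted too. The counting SD of a region may therefore be too small and the ratio too large, so the size of the excess is not read. Even regions had a median SD of 3.79, and 35 of them were among the 239 members with an SD below 3. Summed over positions, the reads behind a region in an animal had a median of 7642 and a lowest value of 417.

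The rule also bounds the average of each animal. The mean level over all members ran from 49.1% in animal 4 of cohort 14 to 50.2% in animal 3 of cohort 14, and over even regions from 48.6% in animal 4 to 50.9% in animal 6 of cohort 14. Animal 6 was further from the others region by region: its root mean square deviation from the mean of the animals was 4.57 percentage points over members, against 3.10 to 3.77 in the other animals, and 5.45 over even regions, against 3.003 to 3.95. It was the highest animal in 126 regions and the lowest in 116, but animal 8 of cohort 14 was the lowest in more, 122. Among even regions animal 6 was the highest in 36 and the lowest in 20. Animals 1 and 8 of cohort 14 were each the lowest in 19 of these, so animal 6 stood out at the high end only. Animal 6 also had the lowest median share of positions at 30% to 70%, 45% against 47.8% to 51.9% in the others. Summed over positions, its library had 548455296 reads, the fewest of cohort 14. The 2 libraries of cohort 10 had 496737892 and 479979855, and the largest of the 11 had 934657900. The part of depth in its deviation was not tested. Without animal 6 the rule kept 930 regions.

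Each region was tested for a relation with the EtOH value, with cohort as a covariate, by a quasi-binomial logistic model moderated with limma over 119749 regions. Levels bounded to 40% to 60% can hold only small slopes, so the count of members is limited by the rule. At an adjusted p under 0.05, 0 of the 775 members were called, where 0% of all 119749 regions were called. At an unadjusted p under 0.05 there were 34 members (4.39%), where 2.92% of all regions passed. By kind, 6 of 149 even, 7 of 184 single-step and 21 of 442 other regions passed unadjusted. With limma on logit levels the counts were 0 adjusted and 9 unadjusted (1.16%), where 3.38% of all regions passed unadjusted, so the order of members and all regions turned with the test.

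The slopes of members ran from -3.99 to 5.82 percentage points per unit of the EtOH value, with a median of 0.324 and a median standard error of 1.49. They were above 0 in 460 members (59.4%), where 54.2% of all tested regions were. In 469 members (60.5%) the 95% interval of the slope lay within 5 percentage points of 0 on both sides. For the other members the interval reached a slope of 5 points per unit or more in one direction, so these data do not show that the level and the EtOH value are unrelated.

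The smallest p among members belonged to chromosome 3 from 129341965 to 129342740, with 23 positions and animals from 45.2% through 54.5% to 59.7%. Its slope was 4.77 ± 1.13 (SE, n = 11) percentage points per unit, with an unadjusted p of 0.000402 and an adjusted p of 0.999982 in the limma-moderated model. Chromosome 14 from 85496319 to 85497300, with 22 positions and animals from 41.1% through 44.4% to 49.5%, had a slope of -2.74 ± 0.507. Chromosome 10 from 26452538 to 26453505, with 23 positions and animals from 40.5% through 47.9% to 57.8%, had a slope of 5.25 ± 1.32. The unadjusted p of the last 2 was 0.00116 and 0.0013 in the same limma-moderated model, and neither held after adjustment. None of the 3 was among the 10 most even regions.

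The cohort term of the same limma-moderated model compared 2 animals with 9. At an adjusted p under 0.05, 0 members were called, where 0% of all regions were. At an unadjusted p under 0.05 there were 35 members (4.52%), where 2.47% of all regions passed, and limma on logit levels gave 12 (1.55%), where 3.67% of all regions passed, again in the opposite order. Cohort 10 minus cohort 14 ran from -10.7 to 10.5 percentage points with a median of 0.337, and 437 members (56.4%) were above 0. Over all tested regions the median was -0.0809 and 48.5% were above 0. Whatever else differed between the animals of the cohorts cannot be told apart from the cohort itself.

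The limits of the rule cut through a continuous range. Just inside, chromosome 2 from 100258164 to 100259121 had its lowest animal at 40%, and chromosome 11 from 68338921 to 68339910 had its highest at 59.997%. Just outside, chromosome 5 from 40380487 to 40381417 had its highest animal at 60.003%, and chromosome 20 from 2567337 to 2568246 had its lowest at 39.994%. The number of members moved with these limits: 35% to 65% gave 2113 regions and 45% to 55% gave 44. Leaving out 4 animals of cohort 14 (3, 6, 7 and 8), which also lowers the number of animals that must pass, gave 1179.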

How the data were processed

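Methylation of CpG positions was measured by capture and bisulfite sequencing in 11 libraries, 1 per animal. The authors deposited a table of methylated read counts and a table of total read counts per position, not normalized; per the submitters' processing notes the tools included FastQC and Bismark. Tool versions and the build were not given in the sources used here. Only the 11 columns matching a sample's library name were used; 5 further columns matched none. The lowest methylated and unmethylated counts were both 1 and the lowest total was 12, which looks like an added 1 in each; no source states this, and counts were used as deposited. Library totals, summed over positions, ran from 479979855 to 934657900, with a read counted at each position it covered. Reads copied by PCR count repeatedly, so errors from counts cover counting only.

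Regions were built by the rule given in the report. A level is 100 times the summed methylated reads over the summed total reads, so deep positions weigh more. Relative depth is the reads at a position over the library's median position, averaged over animals and positions. The spread between animals is an SD over 11 animals. The counting SD is the binomial one, and for a region it treats the reads summed over its positions as independent.

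Regions with at least 5 positions and a pooled level of 5% to 95% (119749) were fitted by quasi-binomial logistic regression on the EtOH value and cohort, with the dispersion shrunk by limma 3.58.1 in R 4.3.3. The two-sided p-values were adjusted over all 119749 regions (Benjamini-Hochberg), with calls at 0.05. Slopes in percentage points, with standard errors, were taken from a least-squares fit of the levels. The fit was tested on simulated data. Other steps used Python 3.11.15, numpy 2.4.6, scipy 1.17.1 and pandas 2.3.3.

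The regions named were the 10 most even, the 5 least even, the 6 loci with most regions, the 3 smallest p for the EtOH value, and those nearest the 40% and 60% limits; flat regions, long runs, depth classes and the wider groups were chosen after their values were seen. The members and lists were chosen with earlier results of these data known. Lists of imprinted genes and of genes with unmethylated promoters had been prepared, but no gene was placed, because the gene table at hand is of a named assembly and the files name no build. Alternatives changed the limits, windows, depth minimum, level definition, animals and test.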

Additional observations from a re-analysis of the deposited data

Results flagged for a closer look

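In 5 of 37 sets of the 9 cohort 14 animals, 1 animal lay apart from the others by the gap rule of Dixon. Chance alone does so in about 1 in 20 sets that are independent and not bounded. Most sets here were levels bounded by the rule, and some shared a locus or regions, so no excess is read from the count. On chromosome 14 from 3224615 to 3225571, a single-step region, animal 1 stood at 51.5% where the other 8 ran from 41.1% to 45.4%. Animal 8 stood at 57.4% on chromosome 14 from 2074319 to 2075315, where the others ran from 49.0% to 52.8%. In the next region, from 2075325 to 2076308, animal 6 stood at 59.97% where the others ran from 49.7% to 54.7%. The last 2 regions belong to the same locus, and a different animal stood apart in each.

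Animal 6 also stood apart in its root mean square deviation from the mean of the animals, at 4.57 percentage points over the 775 members, where the other 8 ran from 3.10 to 3.77. Over the 149 even regions it was 5.45, against 3.36 to 3.95. The cause was not tested.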

How the results depend on the processing

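The number of regions, 775 in 736 loci with 149 even, depended on the rule. Limits of 35% and 65% gave 2113 regions, 1900 loci and 384 even regions, and limits of 45% and 55% gave 44, 44 and 4. At least 10 positions gave 1379, 1314 and 327, and at least 30 gave 454, 428 and 81. Joining at 100 bp gave 454 regions in 427 loci, splitting every 500 bp gave 381 in 355, and windows shifted by 500 bp, chosen after the data had been seen, gave 515 in 484. Without animals 3, 6, 7 and 8 of cohort 14 there were 1179 regions and 241 even; the median share of positions at 30% to 70% was 58.5% and the median flank level 56.3%. Leaving out 1 animal gave 802 to 930 regions, 759 to 881 loci, 146 to 188 even regions, shares of 51.9% to 57.6%, SDs between animals of 3.42 to 3.59 and flank levels of 51.7% to 55.8%. Leaving out animals can only add regions. With a total of at least 50 reads at every position in every animal the share was 54.5% and the flank level 52.4%; of the 562 regions then kept, 98 were the same windows as before. An even band of 25% to 75% gave a share of 66.7% and 245 even regions, and 20% to 80% gave 77.8% and 361. With the level taken as the mean of the positions 811 regions were kept, 376 of them unchanged members; the cause of these shifts was not tested.

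The count of members related to the EtOH value was 0 under 17 of 17 alternatives, with 9 to 59 at an unadjusted p under 0.05; 3 of these (cohort 14 alone, and without either animal of cohort 10) are the same fit, because a lone cohort 10 animal is absorbed by the cohort term. The count of members differing between cohorts was 0 under 16 of 16, with 12 to 54. Over all regions the cohort term called 1 or 2 regions under 3 of the 16; 2 of these left 1 animal in cohort 10, which is then assumed to vary like cohort 14. Slopes of the 3 regions with the smallest p kept their sign in 51 of 51 refits. They were chosen for these slopes and the refits share most animals, so this is no separate support. Of 155 recomputed levels of 31 named regions, 144 moved by less than 1 SD between animals. No paired analysis was possible because replicates were numbered by accession and no label links animals across cohorts. Placing promoters by CpG spacing was not run. Counting copies of PCR products as reads limits what the depth can show.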
